A study of Mus musculus with 36 samples.

Results

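The natriuretic peptide system of the heart was followed through 7 genes: the peptide precursors Nppa and Nppb, the processing proteases Corin and Furin, and the receptors Npr1, Npr2 and Npr3. They were chosen by name for their roles, with earlier results of these data known, out of 18762 genes listed. All 7 passed the filter of at least 1 FPKM (fragments per kilobase of transcript, scaled to library size) in at least 3 libraries. In all, 11790 genes did. RNA was sequenced from hearts of 8-week-old C57BL/6 mice collected 2, 6, 10, 14, 18 and 22 h after lights on (zeitgeber time, ZT) in a cycle with equal light and dark phases. The animals were Reverb fl/fl (labelled WT) or Reverb fl/fl /MHC+ (labelled KO), so a floxed allele of Rev-erb, a repressor of the circadian clock, was shared by both groups. Each group held 3 libraries, so that 18 WT libraries covered 6 times and 15 KO-labelled libraries 5 times. Tables filed under KO ZT22 repeated KO ZT10 and were left out. MHC commonly denotes Cre recombinase expressed in heart muscle cells from a myosin heavy chain promoter. No group carried that transgene without the floxed allele, so the effects of the transgene and of the allele's loss cannot be told apart.

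Atrial and brain natriuretic peptides are hormones that heart muscle releases when its wall is stretched. Corin, a transmembrane protease of heart muscle cells, cuts the atrial precursor, and furin, a protease of the secretory pathway, cuts the brain precursor and other proproteins. The receptors encoded by Npr1 and Npr2 make cyclic GMP when a peptide binds, whereas the product of Npr3 takes the peptides up for breakdown. Nppa is a classical atrial gene whose ventricular transcript rises under load, and both peptide genes are widely used as markers of cardiac stress.

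Nr1d1, which encodes Rev-erb alpha, stood at 192 to 317 FPKM in KO-labelled libraries and at 9.29 to 87.7 FPKM in WT libraries, higher and not lower. Arntl, a clock gene that Rev-erb represses, averaged 27.8 against 5.10 FPKM (KO-labelled against WT, shared times) without overlap (2.61 ± 0.06, limma adjusted p = 3.32e-23), and time of day was not called for it in KO-labelled hearts (adjusted p = 0.839). Neither the floxed exons nor the Rev-erb gene concerned are named in the labels. The Nr1d1 and Nr1d2 values therefore cannot check the deletion, and the term KO-labelled is used throughout. Depth recovered from the FPKM steps was 15.04 to 17.38 M reads (M, 1e6) per KO-labelled library and 13.61 to 15.74 M per WT library. Replicate 1 of WT at ZT2 stood apart in the heat shock gene Hspa1a, at 114 FPKM, the highest value of the 33 libraries, and the members' genotype differences at ZT2 are given with and without it. Hspa1a was high at ZT2 in both genotypes, averaging 53.8 FPKM (KO-labelled) and 56.6 FPKM (WT). Its means at the other shared times were 0.653 to 8.21 FPKM. Nothing in the labels says that libraries of a group came from separate mice, so the p-values reflect spread among these libraries, which may be technical. In bulk tissue, fewer cells of a type and less RNA per cell cannot be told apart.

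Nppa (NCBI Gene 230899) lies on chromosome 4 at 148000722 to 148002074 in GRCm38.p6, the assembly also called mm10. Nppb (NCBI Gene 18158) lies on the same strand at 147985786 to 147987205, with its start 14.9 kb before that of Nppa. Sequence at their starts is shown because both genes were higher in KO-labelled hearts while their levels over the day differed. The Nppa window is the 250 bases before the RefSeq start, chr4:148000472-148000721, plus strand. For Nppb the sources differ in the start: the RefSeq promoter table places it at 147985900 and the GENCODE transcript at 147985788. The window before the RefSeq table's start, chr4:147985650-147985899, therefore holds the first 112 bases of the GENCODE transcript. From it only a stretch of 27 bases with motif matches is printed, chr4:147985795-147985821, plus strand, which lies before the RefSeq table's start and inside the GENCODE transcript. Sequences are from RefSeq. Capitals mark matches on either strand to the GATA motif GATAA, the M-CAT motif CATTCC and the TATA motif TATAAA.
Nppa promoter: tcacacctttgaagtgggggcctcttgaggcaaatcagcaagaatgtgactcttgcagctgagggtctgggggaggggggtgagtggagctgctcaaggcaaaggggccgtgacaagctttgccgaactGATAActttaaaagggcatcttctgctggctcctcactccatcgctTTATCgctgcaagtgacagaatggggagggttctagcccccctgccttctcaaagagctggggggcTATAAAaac
Nppb element: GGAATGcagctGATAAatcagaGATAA

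GATAA matched at 2 places in each window, 121 and 75 bases before the Nppa start and 94 and 83 bases before the Nppb start of the RefSeq promoter table, from which all distances are counted. By the GENCODE start the Nppb matches to the GATA, M-CAT and TATA motifs lie in the transcript. It occurs in 22.6% of the 32851 RefSeq windows of this length. CATTCC matched once, on the opposite strand, 105 bases before the Nppb start (12.6% of windows), and did not match in the Nppa window. TATAAA matched 9 bases before the Nppa start and 31 bases before the Nppb start (12.4% of windows). The motif AAGTG, the core of Nkx2-5 sites, matched at 2 places in the Nppa window and at 0 in the Nppb window (40.7% of windows). The T-box half-site TCACAC matched once in the Nppa window (12.3% of windows). Neither window held the Rev-erb half-site AGGTCA (14% of windows), the E-box CACGTG (6.02%), the AP-1 motif TGANTCA (6.75%) or a CArG box (1.47%). The printed motif matches did not overlap each other, and a match is a string in the window, not a bound site.

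Nppa was higher in KO-labelled hearts at all 5 shared times. At ZT2 the KO-labelled libraries stood at 2207, 2298 and 2717 FPKM and the WT libraries at 305, 161 and 180 FPKM. At ZT6 they stood at 2812, 2523 and 2630 FPKM against 247, 260 and 259 FPKM. At ZT10 they stood at 2870, 1838 and 2200 FPKM against 215, 309 and 373 FPKM. The lowest KO-labelled library thus lay well above the highest WT library through the light phase, and the same held in the dark phase. At ZT14 the values were 2361, 3419 and 2723 FPKM against 279, 397 and 267 FPKM. At ZT18 they were 4661, 3070 and 3956 FPKM against 389, 385 and 259 FPKM. At ZT22, WT libraries stood at 350, 358 and 372 FPKM, close together. The ratio of means ran from 7.70-fold at ZT10 to 11.3-fold at ZT18. The mean log2 difference over the 5 times, on the log2(FPKM + 1) scale used for every fitted difference, was 3.31 ± 0.10 (SE, n = 15 per genotype, limma adjusted p = 1.62e-21), the 2nd largest increase of the 11790 genes. Differences at single times were 3.53, 3.37, 2.95, 3.17 and 3.50 from ZT2 to ZT18 (SE 0.21 each), and 3.81 at ZT2 without WT replicate 1. They did not differ between times by the interaction F test of limma (adjusted p = 0.544). With 3 libraries a group this test does not show that they were equal.

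Because Nppa is abundant in atria, atrial markers were read beside it. Myl7, the atrial myosin light chain, stood at 0 to 0.910 FPKM with the KO label and at 0.140 to 0.910 FPKM in WT. Sln, the atrial calcium pump inhibitor sarcolipin, was at 0 in 11 of 15 KO-labelled and 12 of 18 WT libraries, with maxima of 0.590 and 0.430 FPKM. Bmp10, an atrial growth factor, was at 0 in 10 of 15 and 18 of 18. Myl7, Sln and Bmp10 were thus at or near 0 in both genotypes, whereas other markers of the same list, such as Pam and Myl4, were expressed. Of the 7 markers listed, 4 passed the filter. Their mean genotype difference was called higher for 3 and lower for 1, where 33.2% of all genes tested were higher and 23.4% lower. The summed level of the list was 291 to 376 FPKM with the KO label and 184 to 237 FPKM in WT. Most of that sum was Pam, a peptide-amidating enzyme, at 306 against 194 FPKM on average, without overlap between the genotypes. Myl4 differed by 0.29 ± 0.10, Dkk3 by 0.13 ± 0.05 and Stard10 by -0.19 ± 0.03. What part atrial tissue had in the Nppa difference was not tested.

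**Figure D1:**
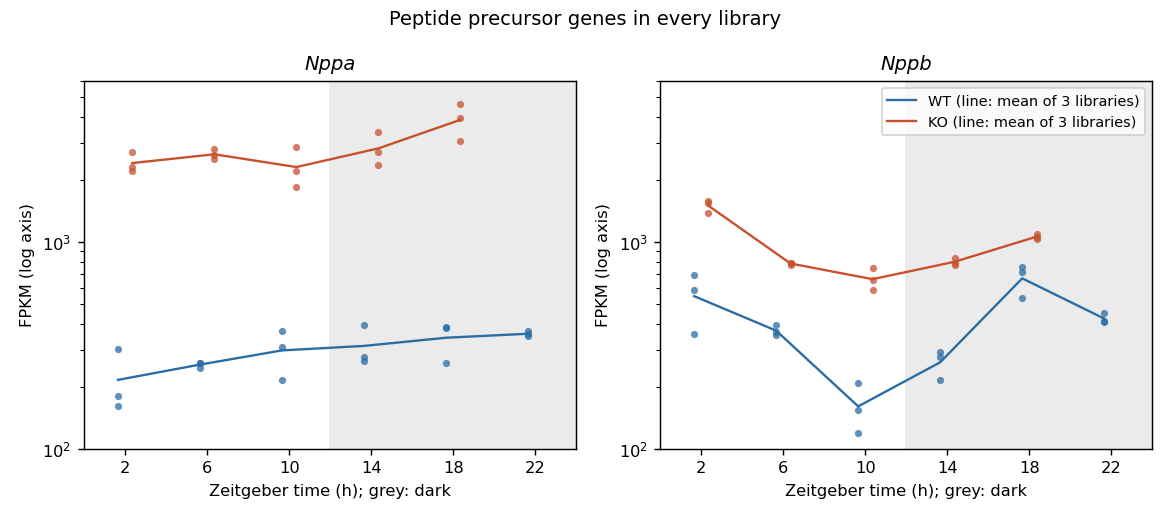
FPKM of Nppa and Nppb (log axis) in every library against zeitgeber time, points for libraries and lines for the means of 3, WT in blue and KO-labelled in orange. KO-labelled libraries lie above WT libraries at all 5 shared times, by 7.70 to 11.3-fold for Nppa and by 1.59 to 4.13-fold for Nppb.

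Nppb was also higher at every shared time, by amounts that changed over the day. At ZT2 the KO-labelled libraries stood at 1571, 1544 and 1374 FPKM against 589, 695 and 357 FPKM in WT. At ZT6 they stood at 794, 795 and 771 FPKM against 353, 398 and 367 FPKM. At ZT10 they stood at 747, 584 and 652 FPKM against 119, 154 and 208 FPKM. Groups did not overlap at any of these times, and the WT level at ZT10 was the lowest of the series. At ZT14 the values were 795, 833 and 778 FPKM against 293, 216 and 277 FPKM. At ZT18 they were 1035, 1089 and 1059 FPKM against 754, 535 and 712 FPKM. At ZT22, WT libraries stood at 410, 454 and 414 FPKM. The WT level at ZT18 was thus similar to the KO-labelled level at ZT10, although groups of the same time remained apart.

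The ratio of Nppb means was 2.74 at ZT2, 2.11 at ZT6, 4.13 at ZT10, 3.06 at ZT14 and 1.59 at ZT18. The log2 differences were 1.5, 1.08, 2.07, 1.62 and 0.68 (SE 0.17 each, limma adjusted p from 2.37e-10 at ZT10 to 0.00290 at ZT18). At ZT2 the difference was 1.58 without WT replicate 1. The mean difference was 1.39 ± 0.08 (n = 15 per genotype, limma adjusted p = 3.96e-15), the 35th largest increase. The interaction of genotype and time was called for Nppb (limma F test, adjusted p = 0.00550), as it was for 5.37% of the 11790 genes. Leaving out each library in turn gave adjusted p from 5.34e-04 to 0.0161 for that test. Nppb was the single member called, and the next smallest adjusted p-values were 0.102 for Furin and 0.182 for Npr3. On the linear scale the Nppb difference was largest at ZT2, at 949 FPKM, and smallest at ZT18, at 394 FPKM, so the time of the largest difference depended on the scale.

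Because FPKM is scaled to transcript length, the levels of both peptide genes could be compared within a library. The ratio of Nppa to Nppb ran from 0.232 to 2.0 in the 18 WT libraries, with a median of 0.754. It was above 1 in 4 of them, all 3 at ZT10 and 1 at ZT14. In the 15 KO-labelled libraries it ran from 1.40 to 4.51, with a median of 3.38, and was above 1 in all 15. By FPKM, Nppb was therefore the more abundant peptide transcript in most WT libraries and Nppa in each KO-labelled library. The annotation behind the lengths is not given and sources differ in the Nppb start. The ratio depends on those lengths, so WT values near 1 do not settle the order. Within KO-labelled hearts the ratio was lowest at ZT2, from 1.40 to 1.98, below the range of 2.82 to 4.51 at the 4 other times.

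**Figure D2:**
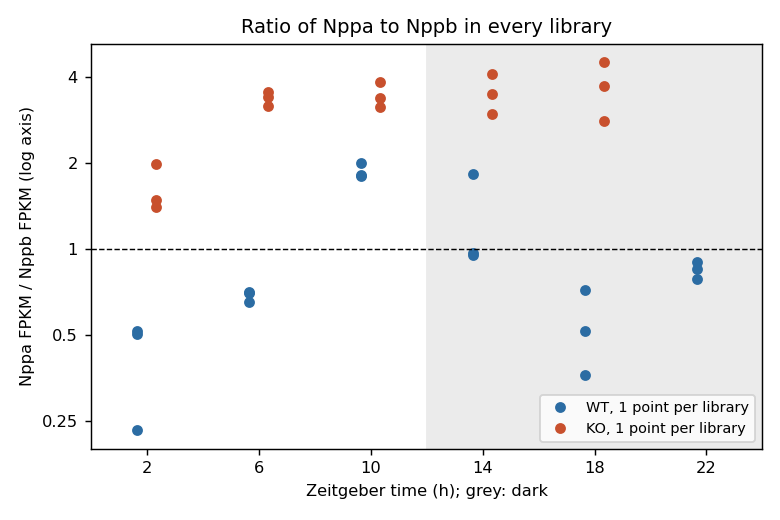
Ratio of Nppa FPKM to Nppb FPKM in every library (log axis) against zeitgeber time, WT in blue, KO-labelled in orange, with the dashed line at 1. All 15 KO-labelled libraries lie above the line, and 4 of 18 WT libraries do, 3 of them at ZT10.

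The protease genes differed little between genotypes. Corin (NCBI Gene 53419, chromosome 5, 72299948 to 72504540) had a median of 95.2 FPKM in KO-labelled libraries (85.2 to 113) and of 84.3 FPKM in WT libraries (68.9 to 102). Its mean log2 difference was 0.16 ± 0.03 (n = 15 per genotype, limma adjusted p = 6.76e-06), and groups of the same time did not overlap at ZT6, ZT10 and ZT18. At ZT14, where WT Corin was highest at 97.9, 102 and 99.1 FPKM, the KO-labelled libraries at 95.2, 104 and 111 FPKM overlapped them. The ZT6 difference of 0.16 (limma adjusted p = 0.0325) was lost without replicate 2 or 3 of KO at ZT6 or replicate 1 or 3 of WT at ZT6, with adjusted p up to 0.107, and with median-ratio scaling (0.129) or quantile normalization (0.0982). The ZT2 difference of 0.14 was not called (adjusted p = 0.0821), was called at 0.0261 without WT replicate 3, and was 0.12 (0.183) without WT replicate 1.

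Furin (NCBI Gene 18550, chromosome 7, 80389194 to 80405441) had a median of 29.6 FPKM in KO-labelled libraries (24.4 to 35) and of 28.0 FPKM in WT libraries (24.1 to 35). The ranges nearly coincided. The mean difference of 0.09 ± 0.03 (limma adjusted p = 0.0201) was not called with median-ratio scaling (0.07, adjusted p = 0.113), quantile normalization (0.07, 0.0852) or edgeR on rebuilt counts (0.07, 0.110). At ZT14 the KO-labelled libraries stood at 32.2, 35 and 34.5 FPKM and the WT libraries at 26.1, 28.9 and 27.2 FPKM, the single time without overlap (0.30 ± 0.07, limma adjusted p = 0.00285). At ZT2 the WT value of 35 FPKM came from replicate 1, against 27.4 and 27.8 FPKM in the other replicates. The ZT2 difference was -0.12 with that library and -0.01 without it, and neither was called.

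Npr1 (NCBI Gene 18160, chromosome 3, 90450591 to 90465928), whose receptor binds the atrial and brain peptides, was not called in the mean over times. Its median was 6.35 FPKM in KO-labelled libraries (5.78 to 7.82) and 6.91 FPKM in WT libraries (5.44 to 8.57). The mean difference was -0.09 ± 0.04 with a 95% interval of -0.17 to -0.00 (limma adjusted p = 0.0689). It was called lower with median-ratio scaling (-0.11, limma adjusted p = 0.0164), quantile normalization (-0.11, 0.0201) and edgeR on rebuilt counts (-0.13, 0.0136). It was also called without replicate 3 of KO ZT2, replicate 2 of KO ZT6, replicate 1 of KO ZT10, replicate 1 of WT ZT2 or replicate 1 of WT ZT10, at -0.10 to -0.11. At ZT18 the KO-labelled libraries stood at 6.18, 6.92 and 6.38 FPKM and the WT libraries at 8.57, 8.48 and 7.75 FPKM. All 3 WT libraries lay above the KO-labelled ones there, and this was the single time at which Npr1 was called (-0.31 ± 0.09, limma adjusted p = 0.00969). The interaction was not called (adjusted p = 0.340), so ZT18 is not shown to differ from the other times. At ZT2 the difference was -0.04, and -0.11 without WT replicate 1, and neither was called.

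Npr2 (NCBI Gene 230103, chromosome 4, 43629015 to 43651437), whose receptor prefers C-type natriuretic peptide, was higher at all 5 times. KO-labelled libraries ranged from 21.0 to 26.2 FPKM with a median of 23.4, and WT libraries from 18.2 to 22.4 FPKM with a median of 20.5. Groups of the same time did not overlap at any of the 5 times, although the ranges over all times did. Differences were 0.20, 0.22, 0.22, 0.25 and 0.15 from ZT2 to ZT18 (SE 0.05 each), with a mean of 0.21 ± 0.02 (n = 15 per genotype, limma adjusted p = 9.58e-10). At ZT2 the difference without WT replicate 1 was 0.20 (adjusted p = 0.00458). The ZT18 call (adjusted p = 0.0154) was lost without replicate 2 of KO ZT18 (0.0646) and with quantile normalization (0.0566).

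Npr3 (NCBI Gene 18162, chromosome 15, 11839896 to 11907837), the clearance receptor, had the largest receptor difference. At ZT2 the KO-labelled libraries stood at 4.85, 5.42 and 5.03 FPKM against 3.55, 2.69 and 2.77 FPKM in WT. At ZT18 they stood at 5.0, 3.53 and 3.88 FPKM against 3.13, 3.06 and 3.48 FPKM. The groups lay far apart at ZT2 and nearly touched at ZT18, and did not overlap at any of the 5 times. The mean difference was 0.38 ± 0.04 (n = 15 per genotype, limma adjusted p = 2.01e-09), with 0.61, 0.44, 0.23, 0.35 and 0.27 at single times (SE 0.09 each). At ZT2 it was 0.71 without WT replicate 1. The ZT10 difference was not called (adjusted p = 0.0526), but was called, down to 0.0242, without replicate 3 of KO ZT10, replicate 1 or 2 of KO ZT18, or replicate 1 or 2 of WT ZT2, without ZT2 (0.0426) and with quantile normalization (0.0272). The ZT18 call (adjusted p = 0.0172) was lost without replicate 1 of KO ZT18 or replicate 1 or 2 of WT ZT18, at up to 0.193. Npr3 also marks endocardium, and of 3 other endocardial markers past the filter 2 were higher and 1 lower (33.2% and 23.4% of all genes). Their summed list level was 18 to 27.0 FPKM with the KO label and 17.3 to 26.1 FPKM in WT, and their part in the Npr3 result was not tested.

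**Figure D3:**
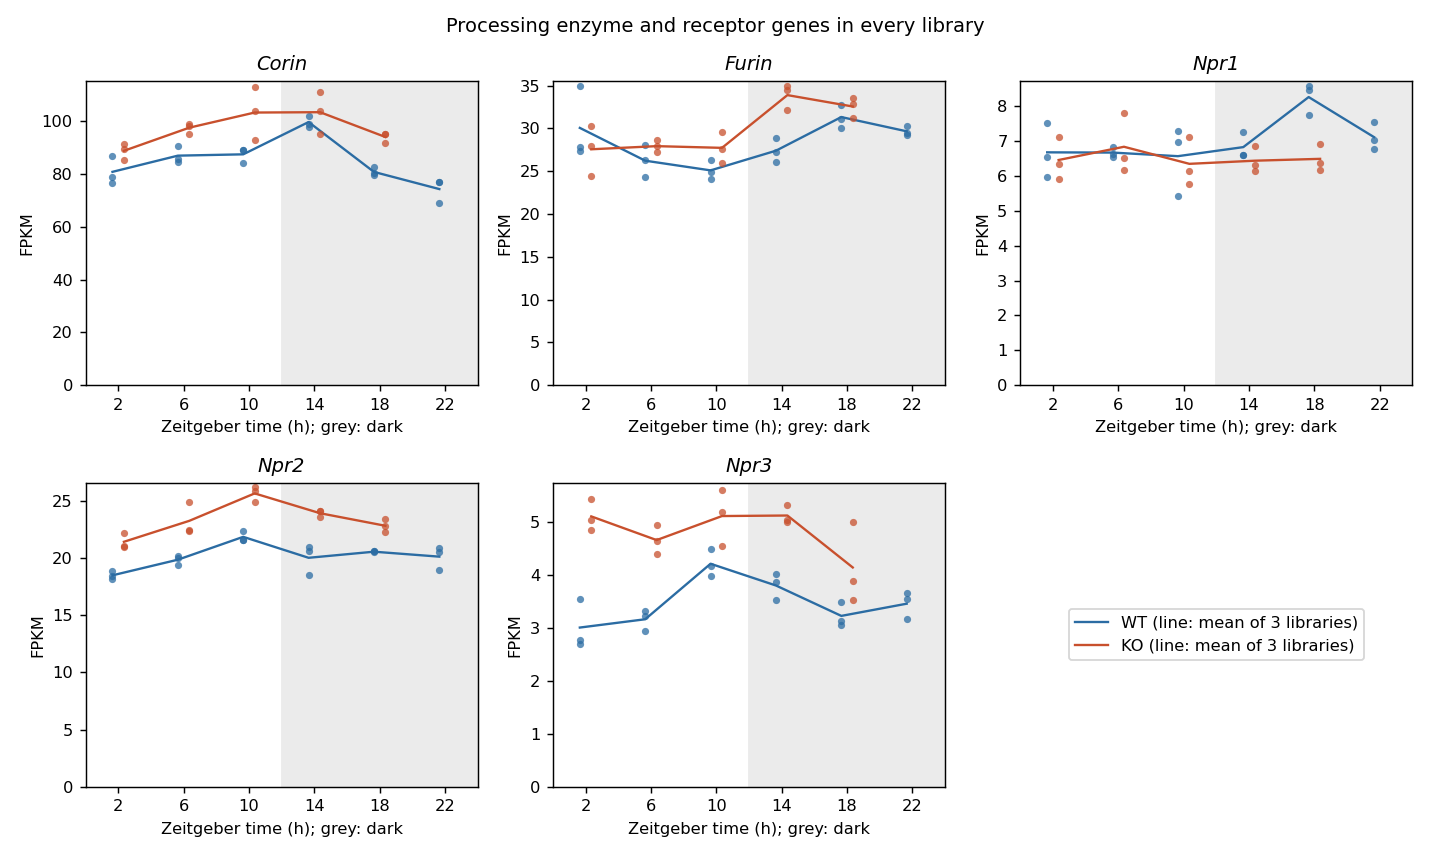
FPKM of the protease genes Corin and Furin and the receptor genes Npr1, Npr2 and Npr3 in every library against zeitgeber time, points for libraries and lines for the means of 3. Npr2 and Npr3 are separated at all 5 shared times, Corin at 3, and Furin (ZT14) and Npr1 (ZT18) at 1 each. The share of all genes separated in this way was not counted.

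Counted together, 6 of the 7 members were higher in the mean effect and 0 were lower, beside 33.2% of all genes higher and 23.4% lower. Member counts at single times were 4 higher at ZT2 (18.6% of all genes), 5 at ZT6 (19.1%), 4 at ZT10 (14.3%), 5 at ZT14 (19.2%), and 5 higher and 1 lower at ZT18 (17.7% and 14.4%). How many of all genes had groups without overlap at a time was not counted, so the separations given for members are descriptions, not calls. The median difference of the members was 0.21, against 0.02 for all genes tested. The differences spanned a wide range, from 3.31 for Nppa and 1.39 for Nppb to 0.38 or less for the proteases and receptors. The annotated span of each member except Nppb overlaps a gene on the opposite strand, and the labels state no stranded counting, so reads from such a partner cannot be told apart.

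**Figure D4:**
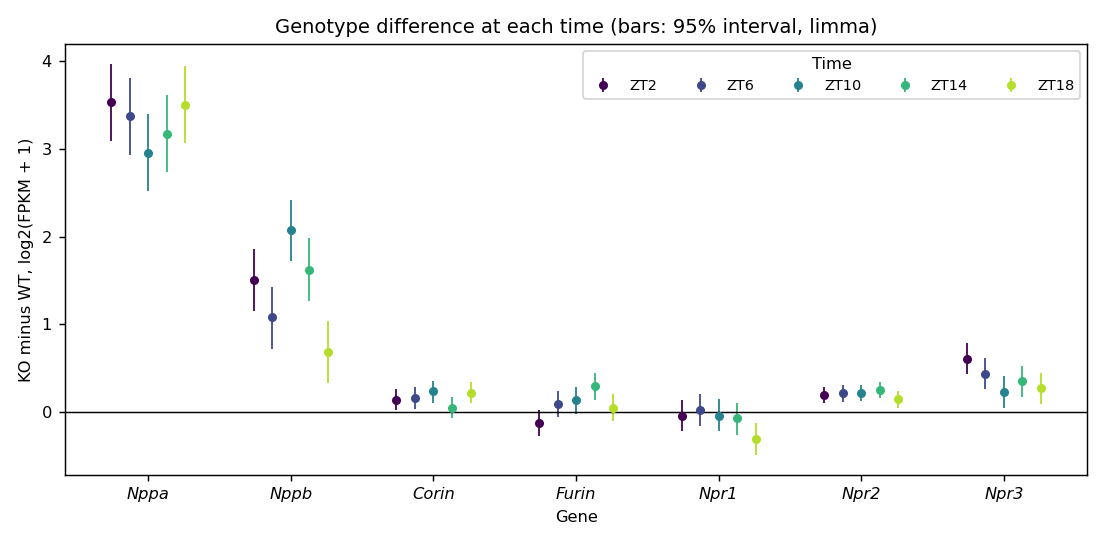
KO minus WT difference of log2(FPKM + 1) for each of the 7 genes at the 5 shared times, with 95% intervals from limma. The Nppa differences lie between 2.95 and 3.53, those of Nppb between 0.68 and 2.07, and those of the other 5 genes between -0.31 and 0.61.

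Time of day was called for all 7 members in WT over 6 times (58.2% of all genes) and for 6 of 7 in KO-labelled hearts over 5 times (45.7%), by limma F tests. Nppb had the widest daily range in WT, from 160 ± 44.8 FPKM at ZT10 to 667 ± 116 FPKM at ZT18 (SD, n = 3), or 4.17-fold (limma adjusted p = 2.35e-09). In KO-labelled hearts it ran from 661 ± 82.0 FPKM at ZT10 to 1496 ± 107 FPKM at ZT2, or 2.26-fold (limma adjusted p = 3.77e-05). In order of level, WT Nppb rose from ZT10 through ZT14, ZT6, ZT22 and ZT2 to ZT18. Libraries of neighbouring times in that order did not overlap up to ZT22, while ZT22 overlapped ZT2 and ZT2 overlapped ZT18. In KO-labelled hearts the order was ZT10, ZT6, ZT14, ZT18 and ZT2, with overlap between ZT6 and ZT14 alone.

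Nppa had a narrower range, 1.67-fold in WT from ZT2 to ZT22 and 1.69-fold in KO-labelled hearts from ZT10 to ZT18. Libraries of neighbouring times in the order of Nppa levels overlapped throughout in both genotypes. Its time-of-day calls were near the threshold. The WT call (limma adjusted p = 0.0217) was lost without replicate 2 or 3 of WT ZT2, at up to 0.113, and without ZT2 in both genotypes (0.185). The KO call (adjusted p = 0.0319) was lost without replicate 2 of KO ZT2, replicate 2 or 3 of KO ZT10, or replicate 1 or 3 of KO ZT18, at up to 0.184.

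Among the proteases, Corin was highest at ZT14 in WT, at 99.6 ± 2.02 FPKM, and lowest at ZT22, at 74.3 ± 4.65 FPKM (1.34-fold, limma adjusted p = 3.65e-05). Furin was highest at ZT18 in WT, at 31.3 ± 1.33 FPKM, and at ZT14 in KO-labelled hearts, at 33.9 ± 1.51 FPKM. The WT maximum of Corin came at the sampling time after the Nppb minimum. The KO call for Corin (adjusted p = 0.0145) was lost without replicate 3 of KO ZT2 (0.0590) and without ZT2 in both genotypes (0.151).

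Among the receptors, Npr2 and Npr3 were both highest at ZT10 in WT, at 21.9 ± 0.442 and 4.21 ± 0.257 FPKM, and both lowest at ZT2, at 18.5 ± 0.395 and 3.0 ± 0.475 FPKM. Npr2 was likewise highest at ZT10 and lowest at ZT2 in KO-labelled hearts. Without ZT2 the WT call for Npr2 (limma adjusted p = 0.00418) was lost (0.0879). Npr1 was highest at ZT18 in WT, at 8.27 ± 0.450 FPKM, and the other 5 WT times lay between 6.57 and 7.12 FPKM. In KO-labelled hearts Npr1 ran from 6.35 to 6.84 FPKM and time of day was not called (limma adjusted p = 0.895). The WT call for Npr1 (adjusted p = 0.0466) held in 13 of 33 fits that each left out a library, with a range of 0.0213 to 0.185. The KO call for Npr3 (adjusted p = 0.0495) held in 5 of 33 such fits, with a range of 0.00417 to 0.296.

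A cosine curve of 24 h period was called in WT for 6 of 7 members (38.6% of all genes), with Npr2 at adjusted p = 0.0534, and in KO-labelled hearts for Nppb, Corin, Furin and Npr2 (26.9%), by limma. The fitted Nppb peak was at ZT22.3 in WT, with an amplitude of 0.79 on the log2 scale, and at ZT22.8 in KO-labelled hearts, with 0.65. Measured WT Nppb averaged 426 FPKM at ZT22, below 667 FPKM at ZT18 and 547 FPKM at ZT2, so the fitted peak is not a measured maximum. KO-labelled hearts have no values at ZT22, so their fitted peak lies between sampled times. Corin peaked at ZT11.4 in both genotypes. Furin peaked at ZT21.0 in WT and ZT16.9 in KO-labelled hearts. The difference of rhythm between genotypes was called for 0 of 7 members (1.09% of all genes), the smallest unadjusted p being 0.0133 for Furin (adjusted p = 0.233), the single one under 0.05. The KO curves had 5 times to rest on, and the WT calls for Nppa and Npr1 held in 10 and 16 of 33 fits that each left out a library. Without ZT2 the WT calls for Nppa, Npr1 and Npr3 (limma adjusted p = 0.0875, 0.0539 and 0.102) and the KO calls for Nppb, Corin and Npr2 (0.173, 0.199 and 0.0851) were lost, and Nppa was called in KO-labelled hearts (0.0103).

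Light phase (ZT2, ZT6, ZT10) was also set against dark phase (ZT14, ZT18) within each genotype. In WT, Nppa, Nppb and Npr1 were lower in the light phase, by -0.38 ± 0.14, -0.40 ± 0.11 and -0.16 ± 0.06 (limma adjusted p = 0.0435, 0.00829 and 0.0426), where 9.84% of all genes were lower. In KO-labelled hearts Nppa and Furin were lower, by -0.43 ± 0.14 and -0.25 ± 0.05 (adjusted p = 0.0271 and 4.90e-04), where 8.16% of all genes were. The contrast did not differ between genotypes for any member (0 of 7 called, 1.00% of all genes), with unadjusted p under 0.05 for Nppb (0.40, 0.0180), Npr1 (0.17, 0.0451) and Furin (-0.14, 0.0487). With libraries left out singly, the WT calls held in 24 of 33 fits for Nppa (-0.47 to -0.29) and 23 for Npr1 (-0.19 to -0.12), and the KO call for Nppa in 29 (-0.51 to -0.36). Without WT ZT2 replicate 1, Npr1 was not called in WT (adjusted p = 0.0805) and Furin was (-0.15, 0.00851). Without ZT2, Nppa was not called in WT (-0.24, 0.181), while Furin was called in WT (-0.18, 8.21e-04) and Nppb in KO-labelled hearts (-0.36, 0.0111). The WT call for Nppa was also lost with no filter (limma adjusted p = 0.0829), no variance trend (0.0520) and quantile normalization (0.0604). With no filter the WT call for Npr1 (0.0689) and the KO call for Nppa (0.0556) were lost. Furin was called in WT with median-ratio scaling (-0.14, 0.0448).

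Within a genotype the members were related across libraries over 42 pairs, 21 in each genotype, by permutation tests of 100000 resamples, two-sided, adjusted over the 42. Nppa and Nppb were not related, with r = 0.00 in WT (rho 0.06, n = 18, permutation p = 1.000 and 0.811) and r = 0.18 in KO-labelled hearts (rho 0.23, n = 15, permutation p = 0.514 and 0.418). In WT, Nppb was related to Furin, at r = 0.70 (rho 0.75, permutation p = 0.00153 and 6.80e-04, adjusted 0.0162 and 0.0151). Its relation to Npr3 was negative, at r = -0.70 (rho -0.64, permutation p = 0.00103 and 0.00484, adjusted 0.0162 and 0.0302). Npr2 and Npr3 were related at r = 0.69 (rho 0.64, permutation p = 0.00154 and 0.00504, adjusted 0.0162 and 0.0302). In KO-labelled hearts Nppb was negatively related to Npr2, at r = -0.84 (rho -0.80, permutation p = 1.10e-04 and 7.20e-04, adjusted 0.00462 and 0.0151). Without the 2 libraries farthest from the median of the first-named gene these 4 values of r were 0.62, -0.61, 0.72 and -0.81. Libraries of a time fall together, and the permutations exchanged libraries freely between times, so the p-values do not allow for that grouping. After time means were subtracted r was 0.12, 0.12, 0.40 and -0.05 for these 4 pairs, values that were not tested. A further 4 pairs passed by rho and not by r. In WT these were Nppb and Corin (rho -0.71, r = -0.57, permutation adjusted p = 0.0162 and 0.0866) and Corin and Furin (rho -0.62, r = -0.51, permutation adjusted p = 0.0381 and 0.132). In KO-labelled hearts they were Nppb and Corin (rho -0.73, r = -0.65) and Corin and Npr2 (rho 0.70, r = 0.66), both with permutation adjusted p = 0.0302 and 0.0568. Without the 2 farthest libraries r was -0.70, -0.61, -0.60 and 0.56 for these, and after time means were subtracted -0.54, -0.33, 0.38 and 0.08.

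The genes most like Nppa over the 11 group means, among 7567 genes with a mean of at least 5 FPKM, were Cd151 (Pearson r = 0.998), Jpt1, Ntsr2, Gltp and Polr1e (0.995 each). Cd151, a tetraspanin of the cell surface, averaged 265 against 164 FPKM. Those most like Nppb were Ppp4r1 (0.965), Timm22, Rab5if, Mrs2 and Capza1 (0.945). Nppb itself ranked 1290th for Nppa (r = 0.751). These points share the genotype difference. With genotype means subtracted, over the 33 libraries, the closest to Nppa were Atpif1 (0.754), Pagr1a, Osbpl9, Adamtsl5 and Ctsa (0.710), and the closest to Nppb were Gfod1 (0.895), Fbxl22, Elavl1, Sh3kbp1 and Ank1 (0.843). The lists for both peptides held different genes, and Nppa and Nppb had r = 0.055 on that measure.

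Genes near Nppa and Nppb on chromosome 4 that are given here differed less. Clcn6, a chloride transporter gene that starts 3.5 kb after the start of Nppa, stood at 2.70 FPKM in both genotypes (-0.00 ± 0.04, limma adjusted p = 0.994). On the side of Nppb, 2510039O18Rik was at 23.7 against 19.5 FPKM (0.27 ± 0.02), Plod1 at 42.9 against 42.3 FPKM (0.03 ± 0.03) and Mfn2 at 273 against 262 FPKM (0.06 ± 0.02). Agtrap, 76.3 kb away, was at 14.4 against 13.9 FPKM (0.04 ± 0.02). Of these genes 2510039O18Rik and Mfn2 were called higher (limma adjusted p = 1.68e-11 and 0.00434). Clcn6, the gene closest to Nppa, Plod1 and Agtrap were not called.

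Among the other ligands, Nppc, the precursor of C-type natriuretic peptide, was at 0 in 10 of 15 KO-labelled and 14 of 18 WT libraries and reached 0.0700 FPKM. Ostn, a peptide that binds the clearance receptor, was at 0 in 7 of 15 KO-labelled and 15 of 18 WT libraries and reached 0.25 and 0.0600 FPKM. Neither passed the filter, so neither was tested.

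Genes of peptide processing and clearance, Npr3, Corin and Furin included, changed in both directions. Of 8 past the filter 5 were higher, 1 lower and 2 not called (median 0.10, against 0.02 over all genes, of which 33.2% were higher and 23.4% lower). The lower one was Mme (NCBI Gene 17380, chromosome 3), which encodes neprilysin, a protease that degrades natriuretic peptides. KO-labelled libraries held 0.700 to 1.37 FPKM with a median of 1.05, and WT libraries 2.37 to 4.98 FPKM with a median of 3.17, without overlap (-1.09 ± 0.06, limma adjusted p = 8.69e-16). Ide, the insulin-degrading enzyme, which also cuts natriuretic peptides, averaged 25.8 against 21.2 FPKM (0.27 ± 0.02, adjusted p = 2.92e-11).

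Of 16 genes of cyclic GMP signalling past the filter, from 20 listed, 6 were higher, 2 lower and 8 not called (median -0.00), against 33.2% higher and 23.4% lower of all genes. Prkg1, the cyclic GMP-dependent protein kinase that acts downstream of the receptors, averaged 5.96 against 2.41 FPKM without overlap (1.03 ± 0.04, limma adjusted p = 1.33e-17). Pde2a, a phosphodiesterase that cyclic GMP activates, averaged 30.4 against 21.8 FPKM (0.47 ± 0.04, adjusted p = 8.46e-12). Pde3b, a phosphodiesterase that cyclic GMP inhibits, averaged 0.728 against 1.97 FPKM (-0.76 ± 0.06, adjusted p = 3.34e-12). Rgs2, a regulator of G protein signalling that the kinase targets, averaged 25.5 against 14.9 FPKM (0.65 ± 0.06, adjusted p = 6.56e-11), with a difference that varied between times. Pde5a, the classical cyclic GMP phosphodiesterase, did not pass the filter, at 0.803 against 0.865 FPKM. Without WT ZT2 replicate 1, 4 genes of this list were lower instead of 2.

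Of 24 transcription factors known from studies of the peptide promoters and of heart muscle, 7 were higher, 8 lower and 9 not called (median 0.01), against 33.2% higher and 23.4% lower of all genes. Nkx2-5, whose core motif stands in the Nppa window, averaged 108 against 72.1 FPKM (0.57 ± 0.04, limma adjusted p = 4.95e-14). Gata4, a factor of the GATA motif, averaged 60.5 against 45.8 FPKM (0.40 ± 0.03, adjusted p = 1.70e-12). The KO-labelled range of Gata4, from 57.9 to 66.2 FPKM, lay above the WT range of 37.3 to 54.9 FPKM. Myocd, a cofactor of serum response factor, averaged 14.5 against 11.4 FPKM (0.34 ± 0.03, adjusted p = 7.65e-10). Hey2, a repressor of the Notch pathway, averaged 1.99 against 2.77 FPKM (-0.34 ± 0.05, adjusted p = 2.91e-06).

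Of 9 load-responsive genes past the filter, 6 were higher, 0 lower and 3 not called (median 0.24), against 33.2% higher and 23.4% lower of all genes. Ankrd1, a stretch-responsive protein of the sarcomere and nucleus, averaged 1705 against 819 FPKM (1.08 ± 0.07, limma adjusted p = 3.88e-13). Rcan1, which restrains calcineurin, averaged 110 against 56.5 FPKM (0.98 ± 0.05). The matrix-associated genes Ccn2 and Timp1 averaged 61.7 against 37.0 and 4.03 against 2.09 FPKM (0.74 ± 0.06 and 0.72 ± 0.09). Acta1, skeletal alpha-actin, and Myh7, the slow myosin heavy chain, were not called, at -0.28 ± 0.13 and 0.24 ± 0.19 (adjusted p = 0.0611 and 0.296). Acta1 was called lower with median-ratio scaling, quantile normalization and edgeR. These 2 are named after their values were seen.

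**Figure D5:**
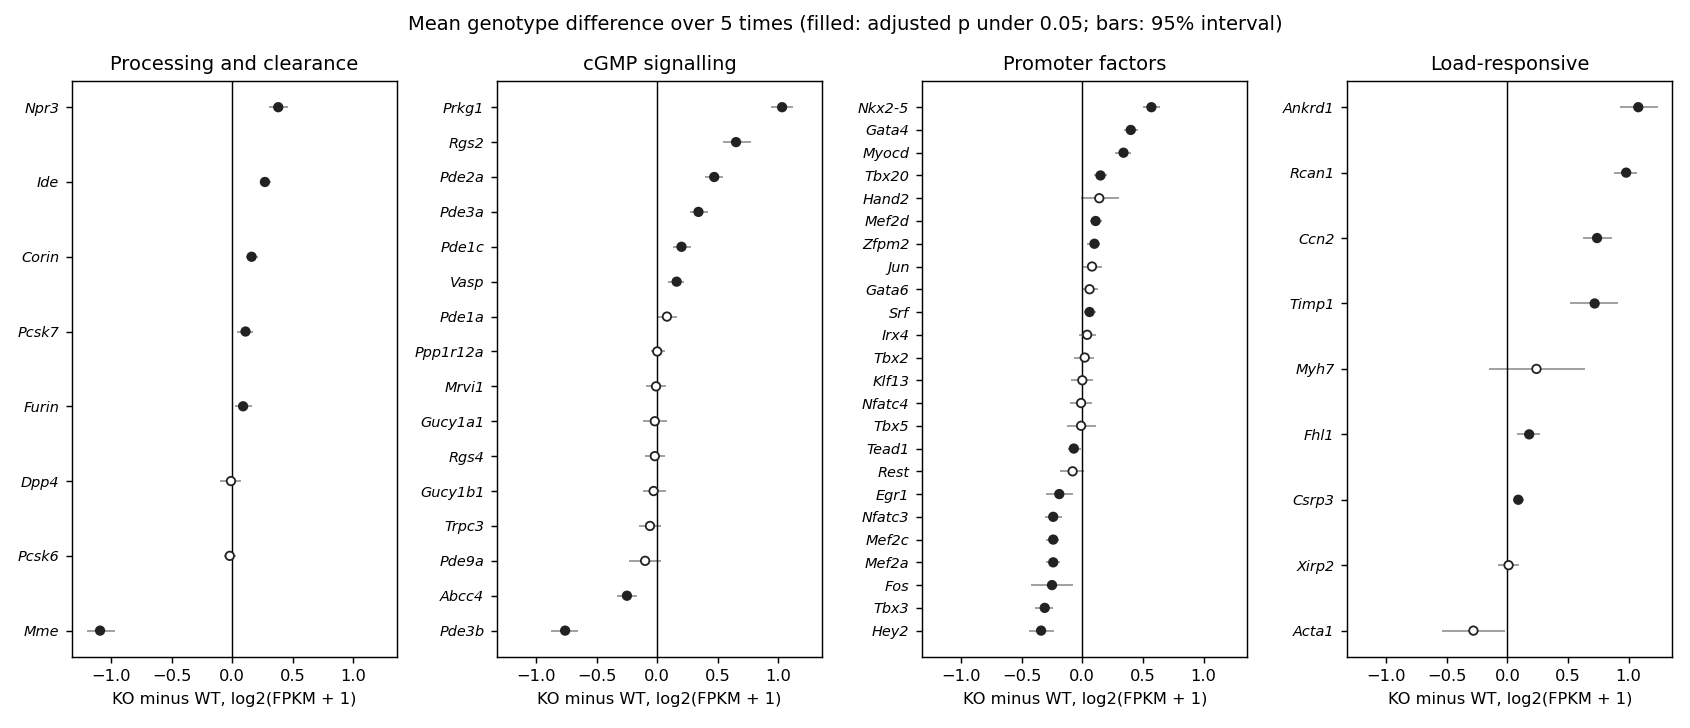
Mean KO minus WT difference of log2(FPKM + 1) over 5 times, with 95% intervals, for genes of 4 lists past the filter, filled where the limma adjusted p was under 0.05. Mme at -1.09 and Pde3b at -0.76 are lowest, and Ankrd1 at 1.08 and Prkg1 at 1.03 are highest.

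Markers of other cells were read beside these results, and their part in them was not tested. Over all genes 33.2% were higher and 23.4% lower, the shares beside which each count below stands. Of 7 cardiomyocyte markers 4 were higher and 3 lower, with summed levels of 53723 to 58682 FPKM with the KO label and 52478 to 58602 FPKM in WT. Of 6 fibroblast markers 4 were higher and 0 lower (362 to 511 against 372 to 445 FPKM). Of 6 endothelial markers 0 were higher and 3 lower (752 to 1040 against 750 to 1162 FPKM). Of 4 smooth muscle markers 1 was higher, Acta2, which averaged 245 against 95.8 FPKM, and 0 were lower (168 to 382 against 59.3 to 250 FPKM). Of 5 pericyte markers 0 were higher and 1 lower (225 to 302 against 245 to 314 FPKM), and of 5 macrophage markers 1 was higher and 0 lower (139 to 201 against 130 to 207 FPKM). No red blood cell marker was called (0 of 3, 1868 to 4309 against 2106 to 4326 FPKM). Both conduction markers past the filter were lower (summed list 3.10 to 6.73 against 5.62 to 9.05 FPKM), and of 2 nerve markers 1 was lower (1.51 to 3.28 against 2.03 to 3.63 FPKM). Lung and thymus markers were at 0 to 0.260 FPKM in sum.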

How the data were processed

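Hearts of 2 genotypes were profiled by RNA sequencing, with 3 libraries for each of 11 groups. Total RNA went into Illumina TruSeq libraries, per the labels' protocols. Per the submitters' processing notes, mm10 was the genome build. Which aligner, counter and annotation were used is not given in the sources used here. The authors deposited 1 table per library whose values fit FPKM, a unit inferred from the values: low values step by gene length and depth. In the tables recorded for KO ZT22 the deposited values are expected counts, with 10.5 to 10.8% of values not whole. By their headers they name KO ZT10 libraries, and zero and nonzero genes fell together with the FPKM of KO ZT10 for 99.957 to 99.963% of genes in same-named pairs and 92.442 to 92.938% in others. They were used only to recover lengths of 16632 genes and depth. KO at ZT22 was not analysed here, and so the mean effect, interaction and KO rhythm cover 5 times. A further 1 column of per-sample values was not used. WT ZT14 replicate numbers in the headers differ from the record, which was followed.

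Depth came from 99 to 144 genes per library with few reads, with 63.2 to 79.8% of their values within 0.15 of a whole read. No libraries were identical (0 pairs). Of the IDs, 18623 were named from the RefSeq annotation and 139 were not. The tests used limma 3.58.1 (R 4.3.3, variance trend) on log2(FPKM + 1). The pseudocount understates changes of low genes. A model of 11 group means had 22 residual degrees of freedom and a 24 h cosine model had 27. Benjamini-Hochberg adjustment covered the 11790 genes past the filter, with a threshold of 0.05. Alternatives were a pseudocount of 0.1, no filter, a mean of at least 5 FPKM, median-ratio and quantile scaling, no trend, a replicate block, no ZT2, each library left out, and edgeR 4.0.16 quasi-likelihood tests on counts rebuilt from FPKM and rounded. The fit was tested on simulated data. Named genes are the 7 members, up to 4 called genes of each list with the largest mean difference, Nppc, Mme and Pde5a, and the 5 most alike by each measure. The genes around the peptide pair are given in part, and the rest are not reported here. The members and lists were chosen with earlier results of these data known.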

Additional observations from a re-analysis of the deposited data

Results flagged for a closer look

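Of 21 named genes tested, 6 had a genotype difference that itself differed between times of day (limma interaction F test, adjusted over all genes), and 1 of these is a member. Over all genes the share was 5.37%. Apart from the members and Mme, the 21 were named for large called mean differences in these data, so they are not an unselected set. Nppb had adjusted p = 0.00550, with differences of 2.07 at ZT10 and 0.68 at ZT18. Rgs2 had adjusted p = 1.01e-04, with 1.21 at ZT6 and -0.19 at ZT2. Ccn2 had adjusted p = 0.00294, with 1.17 at ZT18 and 0.12 at ZT14. Ankrd1 had adjusted p = 0.00742, with 1.69 at ZT18 and 0.52 at ZT10. Myocd had adjusted p = 0.00792, with 0.49 at ZT10 and -0.05 at ZT2. Gata4 had adjusted p = 0.0462, with 0.48 at ZT2 and 0.13 at ZT18. The smallest of these differences was called for Nppb and Ankrd1 and not for the other 4 genes. Without replicate 1 of WT ZT2 the ZT2 differences were -0.19 for Rgs2, 0.01 for Myocd and 0.37 for Gata4, and the interaction was called for all 6 genes. Groups of 3 libraries are too small for a check of single outlying libraries.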

How the results depend on the processing

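Over 43 alternatives (42 for Npr3, which falls below a mean of 5 FPKM), 289 of 300 mean differences of the members kept their direction and side of the threshold, with ranges of 3.25 to 3.36 for Nppa, 1.31 to 1.43 for Nppb, 0.18 to 0.22 for Npr2, 0.32 to 0.47 for Npr3 and 0.13 to 0.18 for Corin. The exceptions were Furin and Npr1. With median-ratio scaling, quantile normalization and edgeR, Furin was no longer called (0.07, 0.07, 0.07) and Npr1 was (-0.11, -0.11, -0.13), which made 1 member lower with each. With libraries left out singly Npr1 ran from -0.11 to -0.07, the members lower from 0 to 1, load-responsive genes lower from 0 to 1 and cyclic GMP genes lower from 2 to 4. The genes called for the interaction ran from 411, without KO ZT18 replicate 3, to 964, without WT ZT2 replicate 1, against 633. With a mean of at least 5 FPKM the lower genes were 0 in processing and clearance, 0 in cyclic GMP signalling and 5 among promoter factors, fewer because fewer genes were tested. One load-responsive gene was lower (1) with median-ratio scaling, quantile normalization, edgeR and without ZT2. The cause of the other changes was not tested. Scaling moved the median of all genes by -0.02 to -0.03, and higher genes from 58.6% of those called to as low as 49.0% (quantile normalization). No called difference changed sign. Counted on the given strand alone, the Nppa window held 1 GATAA and the Nppb window 0 CATTCC.

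No shared deviation of same-numbered libraries was seen: their deviations correlated at -0.103 to 0.062 over 15 pairs, 0 of them over 0.1. With 3 libraries a group this cannot show that same-numbered libraries were collected or handled separately. With the replicate number as a block 6633 genes were called in the mean effect, against 6679 without it, and 6647 with the numbers in the column headers, an alternative chosen after seeing the data. Of the light minus dark, time-of-day and rhythm calls of the members, the block ended those of Nppa in WT for light minus dark (adjusted p = 0.0524), the 5 shared times (0.0593) and the rhythm (0.0594). The header numbers ended these too (0.0502, 0.0561 and 0.0572), and also the calls of Npr1 in WT for time of day (0.0524) and rhythm (0.0522) and of Npr3 in KO for time of day (0.0538). Without a filter the WT time-of-day calls of Nppa and Npr1 were lost (0.0513 and 0.0785), as were the KO calls of Nppa and Npr3 (0.0691 and 0.0810). Depth limits genes near 0, such as Nppc.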
